A study of Mus musculus with 4 samples.

Results

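The cells described here came from the Mll3/4 deleted Kit+ library and carried an immunoglobulin heavy chain (IGH) rearrangement that few other cells shared. A clone was defined as all barcodes whose IGH contig had the same CDR3 nucleotide sequence, the stretch that spans the joins of the V, D and J segments. Members were chosen by the measured contigs, as barcodes whose clone held 1 to 9 barcodes, after filters of 1000 UMIs, 500 genes and a mitochondrial share of at most 10%. Heavy-chain sequences and clone sizes therefore chose them, and expression did not beyond the detection of a contig. There were 893 such cells in 596 small clones, of 14915 kept cells in that library and 56502 deposited barcodes in the series. They were set against the 2060 kept cells of the 14 clones with at least 50 barcodes, called large clones.

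Single bone marrow cells were taken 10 weeks after transplantation, sorted as CD45.2+ and run on a 10x Genomics 5′ kit, version 2, giving UMI counts per gene and assembled immunoglobulin contigs per cell. The 4 libraries were Mll3/4 deleted Kit+, control Kit+, Mll3/4SI Kit+ and control B220lo cells, 1 library each. Control B220lo cells, a sort of B-lineage cells without the deletion, served as the reference for heavy-chain use. Neither the Cre or promoter behind the deletion, nor the number of mice in each library, nor the meaning of SI is stated in the labels. Kmt2c and Kmt2d are the genes of MLL3 and MLL4, enzymes that methylate histones at enhancers.

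Heavy-chain genes are assembled in developing B cells in order. A D segment is joined to a J segment first, and a V segment is then joined to the D-J product by the RAG recombinase, with untemplated bases added at the joins by terminal transferase (TdT, encoded by Dntt). Pro-B cells carry Kit and this machinery, and a cell that makes a heavy chain displays it with the surrogate light chain (Vpreb1, Vpreb2, Igll1) as the pre-B receptor before any light chain gene is rearranged.

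Members had a median of 7381 UMIs and 2851 genes, against 6414 UMIs and 2589.5 genes in large-clone cells. The deleted and control B220lo libraries had 130424242 and 85445426 UMIs, with medians of 6832 and 3354 per kept cell. Of the member barcodes, 17 also occurred in the control Kit+ library, 14 in the SI library and 15 among control B220lo barcodes. Kmt2c was counted at 50.1 CPM in members, 52.1 in large-clone cells and 58.5 in control Kit+ cells, and Kmt2d at 19.0, 20.9 and 24.1 CPM. These are 5′ counts that do not resolve exons and check no deletion. CPM is the usual scaling of the summed UMI count of a gene by the total UMIs of its group. With 1 library per group there was no replicate and no test. Every interval is an exact 95% interval that covers counting error only. Where a count was 0, the share it allows was set at 3 counts of the total, not by an exact interval. The spread over the 14 large clones is given as a description.

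Some small clones were linked to large clones by a D-J end that both carried, and each of the most frequent ends stood next to many V segments. The D-J end was taken as the J bases kept at the 3′ side of the CDR3, up to the conserved tgg codon, plus the 7 bases before them. Where fewer than 3 J bases were kept it was the last 18 bases. Sequences are from the deposited contig tables, written 5′ to 3′, and capitals mark the D-J end. For comparison, the germline Ighd4-1 segment and Ighj2 up to its tgg are from GENCODE M21 transcripts of GRCm38, without capitals.
Ighd4-1: ctaactgggac
Ighj2, to its tgg: actactttgactactgg

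The 2 largest clones shared an end with small clones, of which 5 with different V segments are printed with their clone sizes to show 1 end behind many V segments.
IGHV5-2, 448 barcodes: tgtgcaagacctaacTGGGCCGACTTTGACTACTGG
IGHV5-2, 370 barcodes: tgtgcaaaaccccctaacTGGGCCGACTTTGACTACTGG
IGHV5-2, 8 barcodes: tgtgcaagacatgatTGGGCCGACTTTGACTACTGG
IGHV5-16, 7 barcodes: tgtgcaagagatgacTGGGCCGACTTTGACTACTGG
IGHV2-2, 6 barcodes: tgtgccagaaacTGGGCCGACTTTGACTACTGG
IGHV12-3, 5 barcodes: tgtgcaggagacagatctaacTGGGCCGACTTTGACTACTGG
IGHV7-1, 4 barcodes: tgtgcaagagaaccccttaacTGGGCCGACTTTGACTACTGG

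The third largest clone, also with IGHV5-2, had another end that recurred in small clones.
IGHV5-2, 232 barcodes: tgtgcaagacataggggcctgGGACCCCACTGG
IGHV2-5, 8 barcodes: tgtgccaaaaaggtgGGACCCCACTGG
IGHV5-15, 7 barcodes: tgtgcacaggaactgGGACCCCACTGG
IGHV2-4, 3 barcodes: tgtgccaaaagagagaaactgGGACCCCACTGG

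Further ends were shared with a large clone of 74 and one of 52 barcodes. The CDR3 of the latter does not close with the tgg codon, so its end is the last 18 bases.
IGHV2-2, 74 barcodes: tgtgccggaaCTGCCCCCTTTGACTACTGG
IGHV10-1, 8 barcodes: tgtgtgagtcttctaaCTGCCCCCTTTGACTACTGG
IGHV2-9, 5 barcodes: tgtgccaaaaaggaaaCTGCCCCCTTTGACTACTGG
IGHV2-6-8, 5 barcodes: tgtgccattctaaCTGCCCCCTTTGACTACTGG
IGHV2-6, 52 barcodes: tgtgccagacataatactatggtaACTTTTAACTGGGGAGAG
IGHV5-4, 8 barcodes: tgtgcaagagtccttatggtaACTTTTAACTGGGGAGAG
IGHV5-17, 7 barcodes: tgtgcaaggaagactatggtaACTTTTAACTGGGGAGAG

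Among the 5 small clones with most barcodes (ties in alphabetical order of sequence), 4 had an end found in no large clone, and the other is the IGHV5-2 clone of 8 barcodes printed with the 2 largest clones.
IGHV5-2, 9 barcodes: tgtgcaagacatCCTCTAGTTGACTACTGG
IGHV2-4, 9 barcodes: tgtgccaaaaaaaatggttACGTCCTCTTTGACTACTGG
IGHV2-6, 9 barcodes: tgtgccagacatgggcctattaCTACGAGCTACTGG
IGHV5-2, 8 barcodes: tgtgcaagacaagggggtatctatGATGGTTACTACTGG

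In all, 117 of 596 small clones (19.6%, 16.5 to 23.1), with 221 cells, had the D-J end of a large clone. The share was 17.1% (13.9 to 20.8) in clones of 1 barcode, 29.9% (21.8 to 39.1) in clones of 2 to 9 barcodes and 13 of 21 in clones of 10 to 49 barcodes. In control B220lo small clones it was 1 of 9313 (0.0107%, 0.000272 to 0.0598). The end of the largest clone alone occurred in 39 small clones with 19 V segments, in 5 clones of 10 to 49 barcodes and in 8 of the 14 large clones, which held 1431 cells. It was found in 0 of 9313 B220lo clones, which allows a share of up to 0.0322%. The ends of the third largest clone, of the 74-barcode clone and of the 52-barcode clone occurred in 31, 29 and 14 small clones with 15, 17 and 11 V segments. Clones that share an end, small or large, are not independent of each other, so intervals over clones are too narrow where ends recur. Ends also recur in the B220lo set, where 44.0% of clones had an end that occurred with at least 2 V segments, against 48.3% of small clones, in sets of very different size.

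With 5 bases before the J part the share of small clones with a large-clone end was 21.0% (5 of 9313 B220lo clones), and with 10 bases 13.8% (1 of 9313). At the border of the rule, the 8 clones of 8 or 9 barcodes had a median CDR3 of 36 bases, 3 with IGHV5-2 and 4 with a large-clone end. The 8 clones of 10 or 11 barcodes had 43.5 bases, 3 and 4.

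**Figure D1:**
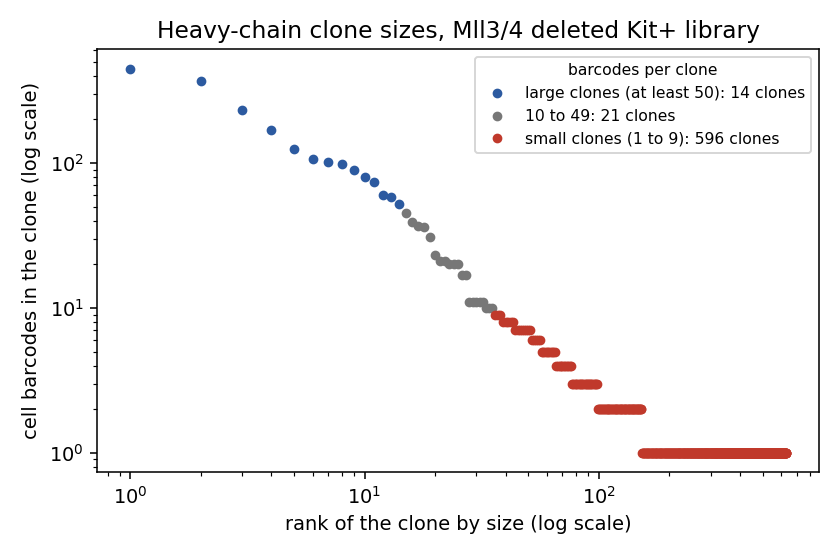
Number of cell barcodes in each of the 631 heavy-chain clones of the deleted library (vertical axis, log scale) by rank (horizontal axis, log scale), coloured by class. Small clones make up 596 of the 631 points and the largest clone holds 448 barcodes.

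Members were 5.99% (5.61 to 6.38) of kept deleted cells and 26.4% (24.9 to 27.9) of the 3384 kept cells with an IGH contig. Every clone size from 1 to 11 barcodes occurred, so no gap set off the small clones, and larger sizes were sparse (the plot of clone size by rank). There were 479 clones of 1 barcode, 54 of 2 and 22 of 3, and the 117 clones of 2 to 9 barcodes held 414 members beside the 479 of 1 barcode. The 1 member with more than 1 IGH contig carried a clone of each kind and was counted with those of 1 barcode. In members the contig rested on a median of 22 UMIs (1 to 152), against 21 in large-clone cells, and 891 of 893 members had a contig with at least 3 UMIs. All member contigs had IGHM as constant segment. A clone within 1 mismatch of a clone of at least 10 barcodes was rare, at 6 of 596. Of the small-clone CDR3 sequences, 1 was also found in the control B220lo table, and 0 in the control Kit+ and 0 in the SI table.

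V segment use of small clones lay toward the J end of the locus, as it did in large clones. IGHV5-2, which lies at chromosome 12, 113578504 to 113578990 on the minus strand (GRCm38, annotated as an IG V gene), was used by 135 of 596 small clones (22.7%, 19.3 to 26.2). The 14 large clones used it in 4 (28.6%, 8.39 to 58.1). Over cells the groups differed, with IGHV5-2 in 25.6% (22.8 to 28.6) of small-clone cells and 54.8% of large-clone cells. The latter share rests on the 3 largest clones, which all used IGHV5-2, and without them it was 80 of 1012 cells (7.91%), below the small-clone cells. Cells of 1 clone share their V segment and are not independent. It was used by clones of 1 barcode in 20.9% against 29.9% of clones of 2 to 9. In control B220lo small clones it was used by 57 of 9313 (0.612%), and in B220lo clones without a light chain contig by 11 of 1728 (0.637%, 0.318 to 1.14). In the other Kit+ libraries IGHV5-2 was used by 0 of 33 clones (control) and 0 of 25 (SI), which allows a share of up to 9.09% and 12%. In these, 33 of 33 and 23 of 24 cells with an IGH contig also had a light chain contig, against 1.57% of members. In B220lo cells of small clones without a light chain contig, Dntt stood at 32.9 and Kit at 3.42 CPM. In members without one they stood at 1200.4 and 335 CPM. None of these sets is thus matched to members.

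Small clones used 51 V segments in all, against 8 in the 14 large clones. After IGHV5-2 the most used were IGHV2-9 in 36 clones, IGHV7-1 in 34, IGHV2-6 in 33 and IGHV2-6-8 in 32. Family 5 was used by 46.5% of small clones, family 2 by 33.2%, family 7 by 5.87% and family 1 by 4.19% (25 clones). In control B220lo small clones family 1 was used by 55.5%, family 5 by 9.14% and family 2 by 5.91%, and in B220lo clones without a light chain family 1 by 53.8%. The median V segment lay 287 kb (interquartile range 158 to 449) from the J cluster in small clones, 382 kb (151 to 462) in large clones and 1279 kb (711 to 2017) in B220lo clones. Transcripts of 4 Y-linked genes stood at 147 CPM in members without a light chain and 0.518 CPM in B220lo cells, so genotype, sex and sort cannot be told apart in any comparison with B220lo cells.

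**Figure D2:**
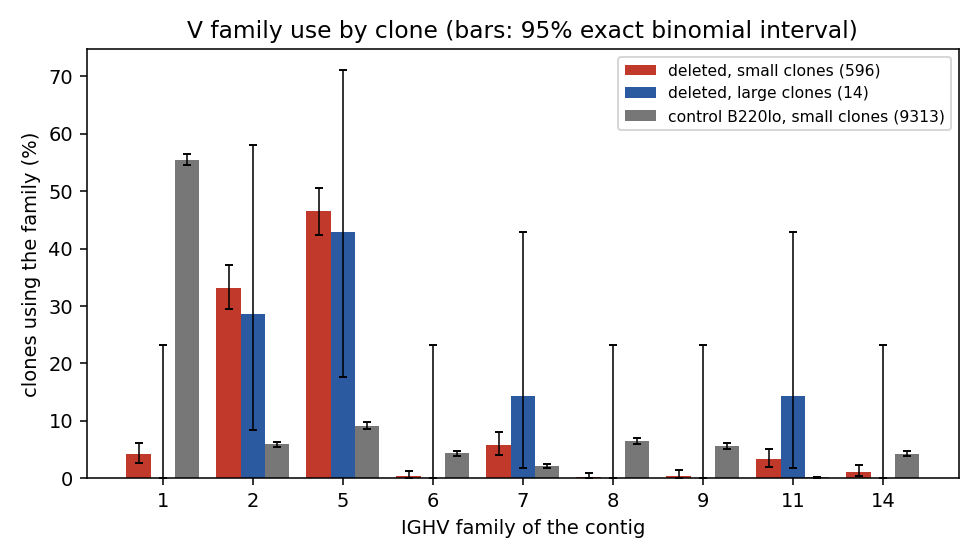
Share of clones (%) that used each IGHV family in small clones and large clones of the deleted library and in small clones of the control B220lo library, with 95% exact binomial intervals. Families 5 and 2 lead in both deleted sets, at 46.5% and 33.2% of small clones, and family 1 leads in the B220lo set at 55.5%.

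J segment use was wider in small than in large clones. IGHJ2 was used by 46.8% of small clones, IGHJ3 and IGHJ4 by 22.7% each and IGHJ1 by 7.89%, whereas 13 of the 14 large clones used IGHJ2. The B220lo shares, in the order J1 to J4, were 21.3%, 38.6%, 24.4% and 15.7%. Among the 117 small clones with a large-clone end 98.3% used IGHJ2, which the definition of the end largely fixes. Among the other 479 small clones the IGHJ2 share was 34.2% (30.0 to 38.7). IGHD4-1 was the longest-matching D segment in 21.3% of the 563 small clones with a measured junction, 11 of 12 large clones and 19.1% of B220lo clones. Of the 14 large clones, 8 shared 1 D-J end and 2 another, so their J and D shares repeat few D-J joins.

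CDR3 regions of small clones were longer and more varied than those of large clones. The median was 39 bases (interquartile range 36 to 48, range 18 to 69, mean 41.0 ± 9.05 SD over 596 clones) in small clones. Large clones had a median of 36 (33 to 38.25, range 27 to 42, mean 34.9 ± 4.80 SD over 14 clones). Control B220lo small clones had 42 (36 to 48). All large-clone lengths lay inside the range of the small clones. Large clones are not 14 independent joins, since 8 of them shared 1 D-J end, which narrows their spread of lengths. Clones of 1 barcode had a median of 42 and clones of 2 to 9 barcodes 39. Small clones with a large-clone end had a median of 36 (33 to 42), and the other small clones 42 (36 to 48). Bases between the V and J parts, less the longest D match of at least 5 bases, were counted where the junction could be measured. Their median was 8 in 563 small clones, 5.5 in 12 large clones and 7 in 8924 B220lo clones. Shorter D remnants are included in this count. So are all bases between V and J where no D matched, in 57, 0 and 1185 of these clones. A CDR3 without the tgg codon occurred in 31 of 596 small clones, 2 of 14 large clones and 32 of 9313 B220lo clones.

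**Figure D3:**
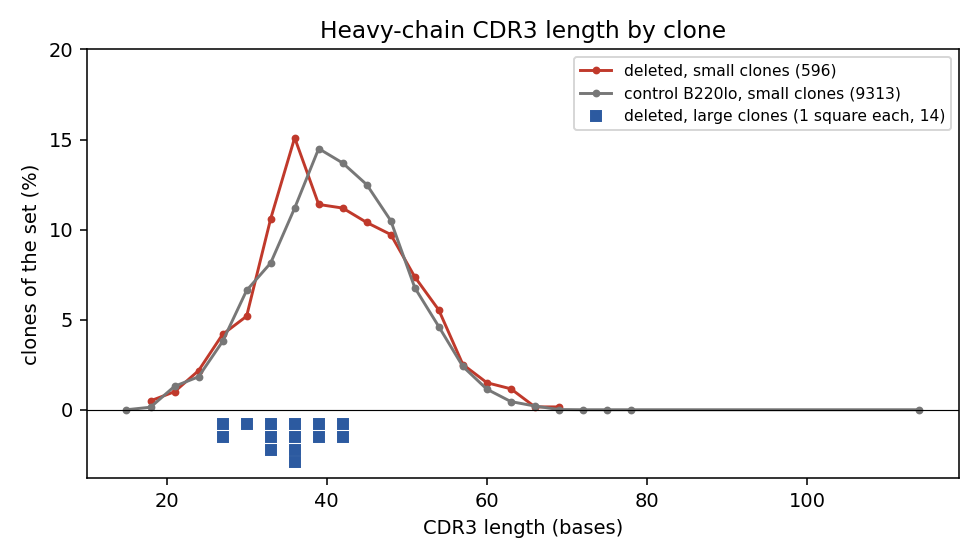
Share of clones (%) at each CDR3 length in bases for small deleted clones and small control B220lo clones (lines), with 1 square for each large deleted clone drawn below the zero line. The large clones lie between 27 and 42 bases, and the small clones reach from 18 to 69.

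V use also differed between the 2 kinds of small clone. Those with a large-clone end used IGHV5-2 in 12% (6.70 to 19.3) and family 2 in 43.6% (34.4 to 53.1). The others used IGHV5-2 in 25.3% (21.4 to 29.4) and family 2 in 30.7% (26.6 to 35.0). The intervals for IGHV5-2 do not overlap, and those for family 2 do, but clones that share an end are not independent.

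Light chain contigs separated a small set of members from the rest. They were found in 14 of 893 members (1.57%, 0.860 to 2.62), all 14 among the 479 members of 1 barcode clones (2.92%). In large clones 4 of 2060 cells (0.194%, 0.0529 to 0.496) had one. In the control Kit+ library 33 of 33 cells with an IGH contig had a light chain contig, and in the SI library 23 of 24. Those 14 members had a median of 2694 UMIs. Ms4a1, which encodes the mature B-cell antigen CD20, was counted in 10 of 14 of them at 678 CPM and in 2 of the other 879 members at 0.357 CPM. Cd74, the class II invariant chain, was counted in 11 of 14 at 9016 CPM, against 2.26 CPM in the other members, 5.27 in large-clone cells and 694 in heavy-chain-only B220lo cells, the 1798 cells of small B220lo clones without a light chain contig. H2-Aa was found in 9 of 14 cells, at 1964 CPM against 1.07. Dntt was counted in 7 of 14 and Igll1 in 6 of 14, against 852 and 871 of 879 other members. Summed over cells, Dntt stood at 1148 CPM in the 14 and 1200.4 in the others, and Igll1 at 1535 and 2659.6. The sums in the 14 rest on few cells. Dntt had 30, 23, 19 and 7 UMIs and Igll1 29, 23, 49 and 8 in the same cells, and no other had more than 2. The cells with 30 and 19 Dntt UMIs were the deepest, at 11884 and 23182 UMIs. Those with 23 and 7 had light chain contigs of 2 UMIs and no Cd74 UMI. None of the 14 barcodes occurred in another library, and the 4 Y-linked genes stood at 249 CPM in them (10 of 14 cells), against 0.518 CPM in the B220lo library. Of these 14 cells 8 used a family 1 V segment, of 25 small clones in all that did.

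The label was checked against its markers. Cd79a and Ighm, the signalling subunit of the B-cell receptor and the IgM constant region, summed to 4249 CPM in members and 4358 in large-clone cells (3832 to 5329 over the 14 large clones). The contig requirement reads Ig transcripts, so Ighm is not independent of the rule. The 11 B-lineage markers summed to 15419 CPM against 15911, and none was under 5 CPM. Deleted cells without a contig stood at 3723 CPM for Cd79a plus Ighm and 13955 for the 11 markers. The markers thus do not single out members among deleted cells. After thinning each cell to the same number of UMIs, Cd79a was counted in 98.8% of members and Igll1 in 95.2%. In cells with erythroid transcripts these shares were 77.7% and 73.4%, and the source of these counts was not tested. The 9 granulocyte markers summed to 2036 CPM in members and 2157 in large-clone cells (144 to 5521 over large clones), with 1245 in clones of 1 barcode and 2922 in clones of 2 to 9. The 5 monocyte markers summed to 39.8 CPM against 29.4 (3.21 to 192 over large clones) and the 6 erythroid markers to 137 against 106 (49.9 to 173), ratios of 1.36 (1.18 to 1.56) and 1.30 (1.20 to 1.39), both inside the spread of the large clones. Markers of early progenitors (ratio 0.988 to 203 CPM in large-clone cells), plasmacytoid dendritic cells (112 against 115 CPM), plasma cells (107 against 111) and T or NK cells (26.4 against 25.3) were close in the 2 groups. The 4 megakaryocyte markers were near 0 in both, at 0.354 against 3.40 CPM, a ratio of 0.104 (0.0209 to 0.320), with 0 to 52.2 over large clones. Procr, Pf4, Gp1bb, Ppbp, Prss34, Ms4a2, Fcer1a, Siglech, Klk1, Cd3e, Cd3d, Trbc2, Klrd1 and Jchain of these and the other lists had 0 UMIs in members. The part of these transcripts in other results was not tested.

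Most genes were counted alike in the 2 groups. Of 9439 genes with at least 100 UMIs in the higher group, 8571 (90.8%) were within 1.25-fold, and the median log2 ratio of small over large was -0.01. A ratio of at least 2-fold was reached by 85 genes (0.901%), 36 higher (0.381%) and 49 lower (0.519%) in members. Of these, 15 of the higher and 3 of the lower were Ig segments. Large-clone cells held 17068744 UMIs and members 8484733. Genes lower in members thus passed the count filter at a lower CPM, and the 2 directions are not on the same footing. Of the 85, 24 lay outside the range of the 14 large clones. A gene with 0 CPM in some large clone, such as Chil3 or Camp, cannot fall below that range. Counting error in the smaller large clones, down to 52 cells, also widens it. For the other genes the range thus does not show how much clones differ. The genes named next are the 12 largest ratios each way.

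Higher in members than in large-clone cells, by many cells, were Epha5, Camk2b, Mmp16, Auts2, Arpp21, Pcdh11x and Bcar3. Epha5, an ephrin receptor, stood at 72.2 CPM in members and 16.6 in large-clone cells, a ratio of 4.36 (3.78 to 5.03), with 6.4 to 48.8 (median 13.6) over the 14 large clones. Members thus stood above all 14. Epha5 was counted in 239 of 893 members (26.8%) and 152 of 2060 large-clone cells (7.38%). Auts2, a transcriptional regulator, stood at 194 against 71.4 CPM, 2.73-fold (2.53 to 2.94). Over the 14 large clones it ranged from 2.17 to 722 CPM (median 31.2), so the groups overlap. Without the 3 largest clones the log2 ratio of Auts2 was 0.96, just under 2-fold. Camk2b, a calcium-dependent kinase subunit, stood at 93.5 against 27.2 CPM (10.0 to 144 over large clones), and Mmp16, a membrane metalloproteinase, at 69.9 against 23.2 (1.67 to 176). Arpp21 stood at 27.5 against 10.3 CPM, above all 14 large clones (3.40 to 25.9), and Bcar3 at 16.7 against 7.15, counted in 107 of 893 members (12%) and also above all 14 (2.17 to 15.6). Without the 3 largest clones the log2 ratio of Bcar3 was 0.95. Pcdh11x, a protocadherin, stood at 26.4 against 9.61 CPM, with 0 to 160.5 (median 0.588) over the large clones, and its log2 ratio fell from 1.46 to 0.71 without the 3 largest clones. Among 63 small clones with at least 3 kept cells, Auts2 was counted in no cell of 31, in some cells of 24 and in every cell of 8. Epha5 was counted in no cell of 23, in some of 38 and in every cell of 2, Camk2b in every cell of 3 and Mmp16 in every cell of 6. Deleted cells without a contig stood between members and large-clone cells for each gene named here. They had 42.8 CPM of Epha5, 64.1 of Camk2b, 41.2 of Mmp16, 135 of Auts2, 20.9 of Arpp21, 13.8 of Pcdh11x and 9.64 of Bcar3.

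Members with and without a large-clone end differed in several of these genes. Epha5 stood at 10.6 CPM in the 221 members with such an end and 87.6 CPM in the other 672. Auts2 stood at 53.7 and 229.6, Mmp16 at 13.6 and 84.0, and Pcdh11x at 1.18 and 32.7 CPM. The values of large-clone cells, 16.6, 71.4, 23.2 and 9.61 CPM, lay between the 2 kinds of member for these 4 genes. Bcar3 differed less, at 10.0 CPM with such an end and 18.4 without, and its 7.15 CPM in large-clone cells was below both. Because these genes were chosen on a difference between all members and large-clone cells, and most members lack a large-clone end, this order is a description only. Members with a shared end against the others passed 2-fold in 108 of 5739 genes (1.88%). That is above the share between small and large clones (0.901%) and between clones of 1 and of 2 to 9 barcodes (26 of 6475, 0.402%), though the groups have different depth. Markers of other cell types also differed between the 2 kinds of member. The 9 granulocyte markers summed to 443 CPM in members with a shared end and 2433 in the others, and the 5 monocyte markers to 7.08 and 48.0. The T or NK markers summed to 4.72 and 31.8 CPM, while those of early progenitors (305 and 174) and the 6 erythroid markers (192 and 124) were higher with a shared end. Large-clone cells all carry such an end, yet they lay nearer the members without one in each of these sums. Their values were 2157, 29.4, 25.3, 203 and 106 CPM, in the same order. Among the 85 genes lower with a shared end, Mpo stood at 176 against 802 CPM, Elane at 89.0 against 636, Prtn3 at 110.3 against 571 and Ctsg at 54.8 against 259.7. Their part in the other differences was not tested. Gal, a neuropeptide, was lower in members, 43.4 against 147 CPM (3.85 to 406 over large clones, 4 below members), and stood at 119 CPM with a shared end and 24.5 without. With equal weight for each clone its log2 ratio was -0.47 in place of -1.76, short of 2-fold. Adgrb3, an adhesion receptor, stood at 22.3 against 78.3 CPM (5.14 to 216, 2 of 14 large clones below members) and at 41.3 in members with a shared end. Kcnma1, a potassium channel, stood at 11.4 against 45.8 CPM and at 28.9 with a shared end. Over the large clones Kcnma1 ranged from 1.67 to 136 with a median of 11.9, so 7 of the 14 were below members.

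**Figure D4:**
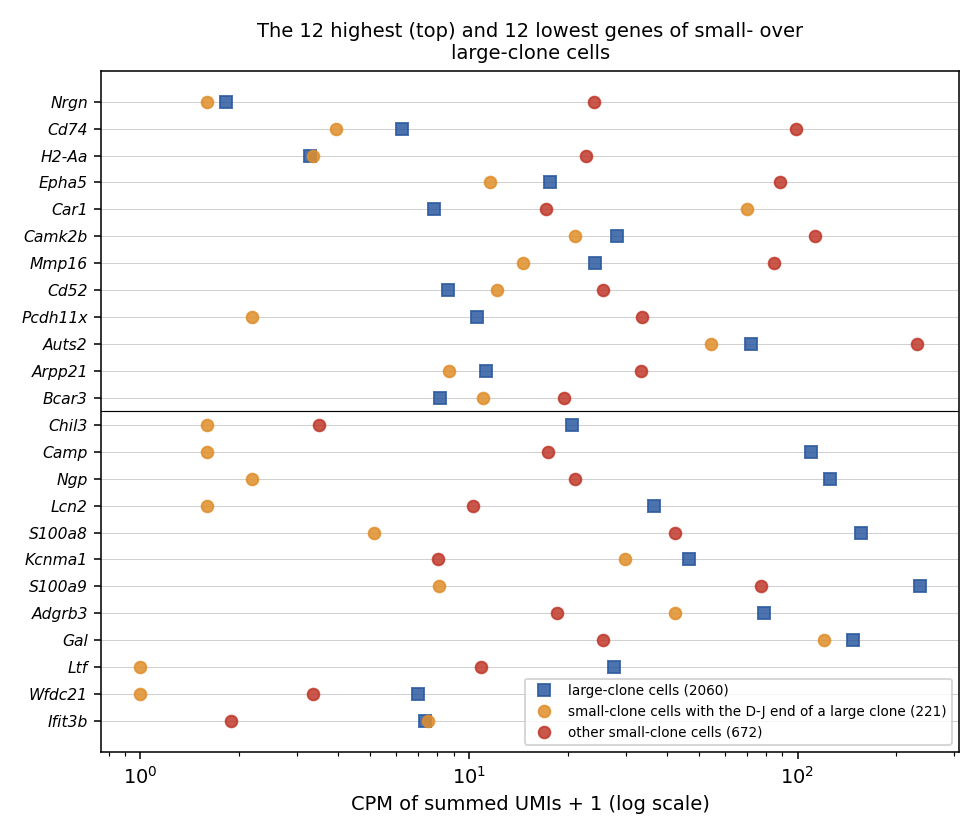
CPM plus 1 (horizontal axis, log scale) of the 12 genes with the highest and the 12 with the lowest ratio of small- over large-clone cells, in large-clone cells (squares), members with the D-J end of a large clone and the other members (circles). For Epha5 the 3 values are 16.6, 10.6 and 87.6 CPM, so the large clones lie between the 2 kinds of member.

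Other genes with high ratios rested on fewer cells. Nrgn, a calmodulin-binding protein, stood at 18.5 against 0.820 CPM, from 21 members. Car1, an erythroid carbonic anhydrase, stood at 26.6 against 6.8 CPM, and 1 cell held 49.6% of its member UMIs. In clones of 10 to 49 barcodes Car1 stood at 61.7 CPM, and in deleted cells without a contig at 67.8, both above members. Cd74 and H2-Aa (79.1 and 17.8 CPM against 5.27 and 2.28) were carried by the 14 members with a light chain. Without them Cd74 stood at 2.26 and H2-Aa at 1.07 CPM, against 5.29 and 2.29 in large-clone cells without a light chain contig. For Cd74 that order rests on 1 large-clone cell with 63 UMIs and no light chain contig, without which large-clone cells stood at 1.58 CPM. Cd52 stood at 21.9 against 7.62 CPM, counted in 50 members. Of its 186 member UMIs 83 were in the 14 members with a light chain, and without them its log2 ratio was 0.68, short of 2-fold.

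Among the lowest were Chil3, Camp, Ngp, Lcn2, S100a8, S100a9, Ltf and Wfdc21, all genes of granulocytes or their granules. Camp stood at 13.2 CPM in members and 109 in large-clone cells, but 1 cell held 56.0% of the large-clone UMIs and 1 cell 52.7% of the member UMIs. It was counted in 13 of 893 members (1.46%) and 31 of 2060 large-clone cells (1.5%), and over the 14 large clones it ranged from 0 to 492 CPM with a median of 2.22. S100a9 likewise had 62.6 against 235 CPM, with 48.5% of the large-clone UMIs in 1 cell, a median of 8.52 CPM over the large clones and 11 of the 14 below members. In clones of 1 barcode Camp and S100a9 stood at 1.56 and 4.01 CPM, and in clones of 2 to 9 at 26.3 and 128, where the log2 ratio of S100a9 was -0.88, short of 2-fold. Ltf and Wfdc21 also fell short there (both -0.68) and without the 3 largest clones (-0.85 and -0.76). The levels of Camp and S100a9 rest largely on 1 cell in each group. Without the top cell of each group Camp stood at 6.26 against 47.8 CPM and S100a9 at 31.6 against 121, ratios of 0.131 and 0.260 beside 0.122 and 0.266 with all cells. Elane and Mpo, granule enzymes of immature granulocytes, stood at 526 and 677 CPM in members and 501 and 524 in large-clone cells. In clones of 1 barcode they stood at 353 and 439 CPM, and in clones of 2 to 9 at 721 and 944. Ifit3b, an interferon-induced gene, stood at 2.0 against 6.33 CPM.

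The surrogate light chain list (Vpreb1, Vpreb2, Igll1 and the related Vpreb3) summed to 6799 CPM in members and 6885 in large-clone cells, a log2 ratio of -0.02 (-0.03 to -0.00), inside the 5964 to 8401 of the large clones. In it Igll1 stood at 2650.1 against 2501 CPM, Vpreb1 at 2619 against 2667 and Vpreb3 at 1529 against 1718. None of its 3 tested genes passed 2-fold. When each clone weighed the same the list stood at 0.14, the other way. Pre-B receptor signalling genes (8 of 10 tested) gave -0.05 (-0.07 to -0.04), with 0 called. B-lineage transcription factors gave -0.07 (-0.09 to -0.06), with 1 of 11 tested called beside 0.901% of all genes tested, Irf8 at 15.7 against 7.56 CPM. Ebf1 stood at 1781 against 1998 CPM and Pax5 at 326 against 333. Proliferation and survival genes gave -0.04 (-0.08 to -0.00), with 0 of 9 called.

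The V(D)J recombination list, Rag1, Rag2 and Dntt, was lower in members, with 1538 against 1800.4 CPM, a log2 ratio of -0.23 (-0.26 to -0.20). Members lay above 3 of the 14 large clones (1429.6 to 2193, median 1856). Dntt stood at 1199.9 against 1405 CPM, Rag1 at 187 against 220.4 and Rag2 at 151 against 175, and none passed 2-fold. In members with a shared end the list summed to 1872 CPM, and in the others to 1455. Clones of 1 barcode summed to 1537 CPM and clones of 2 to 9 barcodes to 1540.3. The log2 ratio was 0.01 when each clone weighed the same, and -0.26 when each cell did. Equal weight for clones pools UMIs within a large clone but counts a clone of 1 cell once at any depth. That setting thus changes the weight of cells as well as of clones, and which of them moved the ratio was not tested.

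Cytokine receptor genes summed to a log2 ratio of -0.20 (-0.23 to -0.16) with 5 tested and 0 called, in opposite directions. Kit, the receptor the sort used, stood at 335 against 405 CPM, below all 14 large clones (366 to 527). Il7r, the interleukin-7 receptor, stood at 374 against 462 CPM, above 2 of 14. Flt3, a receptor of early progenitors, stood at 45.0 against 24.7 CPM, above all 14 (5.88 to 44.9).

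Cell cycle lists were somewhat higher in members when UMIs were summed over cells. The 20 G2/M genes were all higher in members, 0 past 2-fold, with a median log2 ratio of 0.34. They summed to 4666 against 3722 CPM, log2 0.33 (0.31 to 0.34), above 13 of the 14 large clones (2455 to 4725). Plk1 stood at 116 against 87.0 CPM and Ccnb1 at 152 against 110.0, both above all 14. Of the 20 S phase genes 16 were higher and 0 passed 2-fold, with a summed log2 ratio of 0.10 (0.08 to 0.13), above 12 of 14 large clones and -0.03 when each clone weighed the same. In members with a shared end the G2/M list summed to 3599 CPM, and in the others to 4932. After thinning each cell to 2000 UMIs, Mki67 was counted in 38.0% (34.7 to 41.3) of members and 32.2% of large-clone cells, from 56.1% of members unthinned. The G2/M log2 ratio was 0.03 when each clone weighed the same and 0.42 when each cell did. Its size thus differed between these settings, which change the weight of cells as well as of clones. With equal weight for clones, deeper cells weigh more within a large clone but not within a clone of 1 cell. Whether depth had a part was not tested.

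The later B-cell list of 14 genes, 4 of them tested, summed to 383 against 269.9 CPM, log2 0.51 (0.44 to 0.57), above all 14 large clones (159 to 336). Much of both sums was H2-Ab1, at 217 CPM in large-clone cells. In members without a light chain contig H2-Ab1 stood at 211 CPM, counted in 639 of 879. All 4 tested genes were higher and 2 were called, Cd74 and H2-Aa, beside 0.901% of all genes tested. Without the 14 members with a light chain the log2 ratio was -0.06, and it was the same with such cells left out of both groups. Light chain constant genes Igkc, Iglc1 and Iglc2 had 12, 13 and 55 UMIs in members and 1, 0 and 0 in large-clone cells. Of the member UMIs, 10, 13 and 54 were in the 14 members with a light chain contig.

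**Figure D5:**
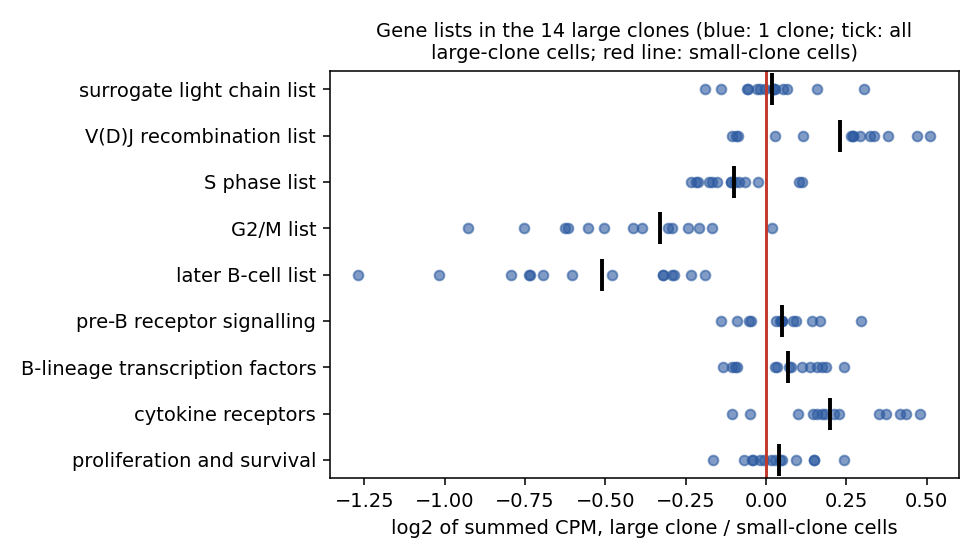
Log2 of the summed CPM of each gene list in each of the 14 large clones (blue points) and in all large-clone cells (black ticks) over that in small-clone cells, which is the red line at 0. For the G2/M list 13 of 14 points lie left of the line, and for the V(D)J recombination list 3 do.

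Family 1 V segment transcripts in the count matrices did not follow the contigs of the same cells. They summed to 10291 CPM in members, 10866 in large-clone cells and 9606 in deleted cells without a contig, though 4.19% of small clones and 0 of 14 large clones used family 1. In heavy-chain-only B220lo cells, of whose clones without a light chain 53.8% used family 1, they summed to 1003 CPM. Of 865 members with no family 1 contig, 863 had a family 1 UMI, with a median of 86 UMIs. Ighv1-66 alone stood at 2127 CPM (2096 to 2158) in members with 0 small clones using it, against 11.4 CPM in heavy-chain-only B220lo cells. Ighv1-75 stood at 1334 CPM with 1 small clone using it, and Ighv1-23 at 1211 CPM with 0. The segment of the contig was nearly always counted too, in 889 of 893 members (99.6%, 98.9 to 99.9), but it made up 10.6% of V segment UMIs and was the highest V segment in 166 members (18.6%). Ighv5-2 was counted in 228 of 228 members with an IGHV5-2 contig and in 56 of 665 other members (8.42%, 6.42 to 10.8), against 16.6% of deleted cells without a contig. V segments are close paralogs, so how reads were split between members of a family is uncertain.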

How the data were processed

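The authors deposited raw UMI counts for each gene and barcode. Per the submitters' processing notes they came from Cell Ranger 7.1.0 on mm10. They also deposited tables of productive immunoglobulin contigs with read and UMI counts, per the file headers. Cell calling came before deposit. From these, barcodes were filtered at 1000 UMIs, 500 genes and 10% mitochondrial UMIs. Doublets were scored with Scrublet in scanpy 1.11.5. The caller's threshold had not worked, with 0 deleted barcodes marked, and 12.3% of members, 10.3% of large-clone cells and 6.94% of cells without contig scored at least 0.25. None was removed except in an alternative.

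UMIs were summed per group and given as CPM, and ratios carry exact conditional binomial intervals (scipy 1.17.1). Shares carry Clopper-Pearson intervals. Genes needed 100 UMIs in the higher group, with no pseudocount. Named genes were the 12 largest ratios each way, without receptor segments, mitochondrial, ribosomal, Gm-numbered, Rik and Y-linked genes, Xist and Tsix, plus fixed lists. The ratio step was tested on simulated data. Germline segments and positions are from GENCODE M21 on GRCm38. Whether the annotation used for counting was the same is not given in the sources used here. The V segment of a clone is the most frequent among its contigs. The members, lists and sets compared were chosen with earlier results of these data known, and the split by D-J end was made after the sequences were seen. A marker gene with its result is not reported here.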

Additional observations from a re-analysis of the deposited data

How the results depend on the processing

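Added after the data were seen were the settings without light chain members, without light chain cells in both groups, without the top cell of a gene, without the 3 largest clones, with equal weight for each cell and with 5 or 10 bases before the J part. Of 161 recomputed values 17 could not move, since the setting left out no member or changed only the large clones. Of the other 144, 105 stayed inside the main 95% interval (for the gene count, within 1.5-fold). For clones of 1 barcode alone, the share of kept cells was 3.21%, the light chain share 2.92%, and the log2 ratios 0.37 (G2/M), 0.14 (S phase), 0.86 (later B-cell) and 0.01 (surrogate light chain, reversed). For clones of 2 to 9 they were 2.78%, 0.241%, 0.28, 0.06, 0.12 and -0.05, with 29.9% using IGHV5-2 and 29.9% with a large-clone D-J end. The 0.241% is the 1 member that carried a clone of each kind. That end share was 13.8% with 10 bases. Equal weight for each clone gave 0.03 (G2/M), -0.03 (S phase), 0.01 (V(D)J recombination), 0.14 (surrogate light chain) and 1.60 (later B-cell), of which the S phase, V(D)J recombination and surrogate light chain lists changed sign. Equal weight for each cell gave 0.42, 0.16, -0.26 and 1.14 for G2/M, S phase, V(D)J recombination and later B-cell. Without the 3 largest clones the surrogate light chain list reversed to 0.01, V(D)J recombination was -0.17, G2/M 0.39 and later B-cell 0.60. Leaving out doublet scores of at least 0.25 gave -0.28, 0.34 and 0.67 for V(D)J recombination, G2/M and later B-cell. With large clones from 20 barcodes, V(D)J recombination was -0.19 and S phase 0.08. The later B-cell list was 0.43 under the stricter cell filter, and it reversed to -0.06 without light chain members, as did Cd74 (-1.22) and H2-Aa (-1.09). With light chain cells left out of both groups these were -0.06, -1.23 and -1.10, and the Cd74 value rests on 1 large-clone cell with 63 of 90 UMIs. Without the top cell of each group all 24 named genes stayed past 2-fold. The 85 genes past 2-fold became 140 with at least 50 UMIs, 43 with at least 300 and 37 with 10 CPM added. Apart from the settings that leave cells, clones or genes out by construction, the cause of these shifts was not tested.

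No paired analysis was possible because each group had 1 library, and no replicate could be left out for the same reason. Among named genes, 20 values fell under 2-fold. They were Cd52 (0.68) in both settings without light chain cells, Pcdh11x (0.71), Auts2 (0.96), Bcar3 (0.95), Ltf (-0.85) and Wfdc21 (-0.76) without the 3 largest clones, Cd52 (0.92), S100a9 (-0.88), Ltf and Wfdc21 (both -0.68) in clones of 2 to 9 barcodes, Gal (-0.47) and Car1 (0.77) with equal weight for each clone, Car1 (0.56) with large clones from 20 barcodes, and Cd52 (0.86), Pcdh11x (0.89), Arpp21 (0.88), Bcar3 (0.64), Wfdc21 (-0.43) and Ifit3b (-0.44) with 10 CPM added. The design limits every statement to these libraries. The 14 large clones limit the precision of every share over them, and depth limits genes under 100 UMIs. Free RNA cannot be told apart from expression here.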
